A study of Mus musculus with 12 samples.

Results

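DNA methylation was compared between transferred B cells sorted after 5 divisions (Div5, 2 libraries) and after 3 divisions (Div3, 2 libraries), over all 760348 CpGs of the deposited table. These 4 libraries are 4 of the 12 of the series, and every CpG of the table entered the comparison, so no CpG was chosen by its level. In the series, naive splenic B cells (B220+ CD43-) from C57/BL6J donors, per the design text, were stained with CFSE or CTV, dyes that halve in brightness at each division, and transferred into uMT mice, which lack mature B cells of their own. The hosts received LPS, a bacterial cell wall component under which B cells divide and can turn into antibody-secreting plasmablasts, and the transferred cells were sorted from the spleen on day 3.

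Both groups share this treatment and differ by design in the division gate. Their read depths also differ, as given below. Div5 held the libraries of host 196 and host 197, and Div3 held the libraries of the same 2 hosts. The other fractions (Div0, Div1, and cells past 8 divisions without or with the plasmablast marker CD138, called Div8neg and Div8pos) came from the same animals. They are used here to estimate the spread and to follow CpGs in libraries that did not choose them. The labels give the tissue as spleen, the age as 8 weeks, the sex as female and the strain as B6.SJL-Ptprca Pepcb/BoyJ, without saying whether these describe host or donor. Each fraction of 1 host is 1 library, so the error stands for 2 animals, and a level between 0 and 100% does not tell whether all cells are partly methylated or some cells fully.

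CpG methylation is copied onto the new strand after each replication by the maintenance methyltransferase Dnmt1, and it is lost when copying fails over several divisions or when Tet enzymes oxidise the mark. Loss away from start sites, at enhancers, is a known feature of B cells that become plasmablasts. Reduced representation bisulfite sequencing reads the share of methylated molecules at CpGs near MspI and TaqI cutting sites. It oversamples CpG-rich start sites, most of which are unmethylated.

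Summed over the table, the Div5 libraries held 19961643 reads in host 196 and 49530616 in host 197, against 47827992 and 53290327 reads in the Div3 libraries. Median coverage per CpG was 23 and 57 reads at Div5 and 55 and 62 reads at Div3. The host 196 library of Div3 is deeper than the other host 196 libraries, which had medians of 20 to 30 reads. At 91 CpGs where host 196 exceeded host 197 by at least 20 points over Div8neg and Div8pos together (quasi-binomial test, adjusted p under 0.05), the hosts also stood apart at Div5, with 72.0% in host 196 and 46.7% in host 197. They did not stand apart to this extent in the earlier fractions, with 58.3% in host 196 and 58.9% in host 197 at Div3, 69.8% and 66.3% at Div1 and 67.0% and 66.6% at Div0. The host 196 library of Div3 was thus the lowest of these 4 host 196 libraries at the 91 CpGs. The number of called CpGs without it is given below. The regions, the CpGs around the lower ones and the CpGs followed across hosts and fractions are given only with it. Whether the label of this library is right was not tested. CpGs on the Y chromosome were covered in every library, with medians of 13 to 45 reads over 81 CpGs, and coverage of the X chromosome was 67.3% to 77.3% of that of the autosomes, although the samples are labelled female. At the promoter CpGs of the B cell genes Cd79a, Pax5 and Cd22 the mean was 1.46% and 5.10% at Div5 and 6.90% and 4.44% at Div3, against 90.3% and 90.2% at Div5 and 94.2% and 89.2% at Div3 for the T cell genes Cd3e, Lck and Cd4. Promoter CpGs of the B cell markers Cd79b, Ms4a1 and Blk were not covered.

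Methylation was lower at Div5 than at Div3 by under 1 percentage point when averaged over the table, and the loss was spread over methylated CpGs. The mean over CpGs was 55.4% in host 196 and 55.0% in host 197 at Div5, and 55.9% and 55.5% at Div3. The difference of Div5 minus Div3 was -0.454 points in host 196 and -0.478 points in host 197, a mean of -0.466 points (SD 0.0174, n = 2 hosts). Both Div5 libraries lay below both Div3 libraries, but 2 libraries against 2 cannot go below p = 0.33 in an exact permutation test, or 0.5 within hosts, so no test is given. The sign depended on the weights. Pooling all reads of a library gave a Div5 minus Div3 difference of 0.575 points, with 53.8% and 53.7% at Div5 against 53.1% and 53.3% at Div3, and giving each CpG its coverage over the 4 libraries as 1 shared weight gave -0.452 points.

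CpGs of middle and high level carried the loss. Among CpGs grouped by their level at Div1, which was not used in the comparison, those under 20% differed by -0.0342 points on average. Those of 60 to 80% differed by -1.62 points (SD 0.00601, n = 2 hosts), the largest mean loss of the 6 level bins, and those of 90% or more by -0.550 points. The share of CpGs at 80% or more was 50.9% and 51.1% at Div5 against 51.9% and 51.7% at Div3, while the share of 20 to 80% was 10.8% and 10.3% at Div5 against 9.62% and 9.69% at Div3. Of 21 chromosomes, 20 had a lower mean at Div5 in both hosts, all but the Y, and the autosomes ranged from -0.535 to -0.371 points.

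**Figure D1:**
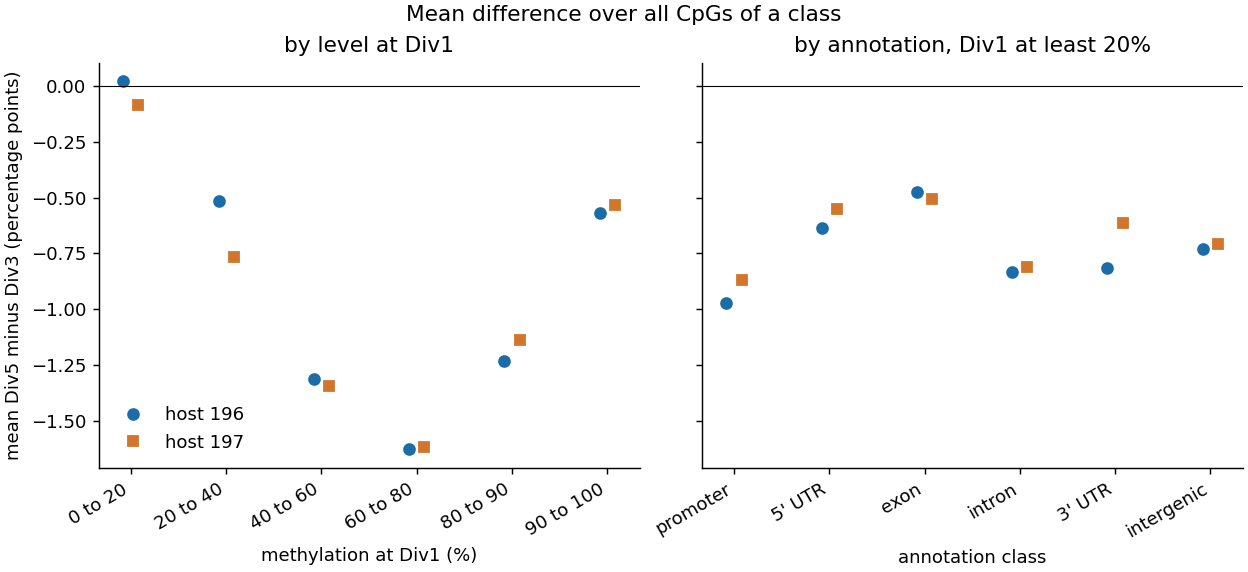
Mean difference of Div5 minus Div3 in percentage points for host 196 (circles) and host 197 (squares), by the level of the CpG at Div1 (left) and by annotation class among CpGs of at least 20% at Div1 (right). CpGs of 60 to 80% lost the most, at -1.62 points, and every annotation class lay below 0 in both hosts.

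Among the 466949 CpGs of at least 20% at Div1, promoter CpGs (2500 bp before to 500 bp after a start site) differed by -0.920 points (SD 0.0709, n = 2 hosts) and intronic CpGs by -0.822 points. Intergenic CpGs differed by -0.719 points and exonic CpGs by -0.490 points, the smallest loss of the 6 classes. These class means all had the same sign in both hosts, and no test was run between classes.

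At single CpGs, 160 CpGs were lower and 3 were higher at Div5 than at Div3 (quasi-binomial model with limma's moderated dispersion, Benjamini-Hochberg adjusted p under 0.05 and means at least 20 points apart). This is 0.021% of the 760348 CpGs for the lower ones and 0.000395% for the higher ones. At an unadjusted p under 0.05 the counts were 31076 lower and 18119 higher. All 160 lower CpGs were lower at Div5 in both hosts, against 22.8% of all CpGs. Their choice by a difference between these libraries largely fixes this. Of the 160, 137 differed by at least 20 points in each host. The median difference was -31.6 points and the range -52.7 to -22.1. Just inside the size limit lay a CpG of Sowahc at -22.1 points, and just outside it, with an adjusted p under 0.05, a CpG of Cmss1 at -20.0 points.

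How many CpGs passed changed with single libraries and with the test. Leaving out the host 196 library of Div3 gave 69 lower and 2 higher CpGs, of which 66 were among the 160, and leaving out the host 197 library of Div3 gave 73 lower and 2 higher, with 61 of the 160. Without the shallow host 196 library of Div5 there were 150 lower and 0 higher CpGs, and without the host 197 library of Div5, 0 of either. The quasi-likelihood test of edgeR called 25 lower CpGs, all among the 160, and 0 higher.

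The lower CpGs were mostly intronic or intergenic, as were most CpGs of at least 20% at Div1. Of the lower CpGs, 77 stood alone. Joined at gaps of up to 500 bp, the 160 formed 109 places, of which 77 held 1 CpG, 20 held 2 and 12 held at least 3. By annotation 75 were intronic, 62 intergenic, 11 in promoters, 8 exonic and 4 in 3′ UTRs, and all 160 were on autosomes. Their median distance to the nearest start site was 16830.5 bp, against 7161 bp over all CpGs, and 21 of them (13.1%) lay within 2.5 kb of one, against 39.8% of all CpGs, which include the unmethylated start sites that cannot fall by 20 points. Among CpGs of at least 20% at Div1, 0.00658% were called lower within 500 bp of a start site. The share was 0.0494% at 500 to 2500 bp and 0.0448% at 2.5 to 10 kb. It was 0.0397% at 10 to 50 kb and 0.0199% at 50 kb or more. By class it was 0.0487% in promoters, 0.0462% in introns, 0.0400% in 3′ UTRs and 0.0288% in intergenic sequence. It was 0.0151% in exons and 0% in 5′ UTRs. Of these 466949 CpGs, 162213 were intronic and 215027 intergenic.

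Followed in the libraries that did not choose them, the 160 CpGs went on a path from high to low across the divisions. Their mean level was 79.9% in undivided cells and 77.7% in Div1 cells, then 64.2% in Div3 and 31.0% in Div5 cells, the values that chose the CpGs, and 25.2% in Div8neg and 10.99% in Div8pos cells. None was lower at Div1 than at Div0 by the same test, nor was any other CpG (0.0%). At Div3, 93 were already at least 10 points below Div1, and 66 were within 10 points of it. In comparisons that share no library with Div5 and Div3, 146 of the 160 (91.3%) were lower at Div8neg than at Div1. Of all CpGs 0.671% were. Likewise 156 (97.5%) were lower at Div8pos than at Div1, against 6.14% of all CpGs. All CpGs include 293399 under 20% at Div1 that cannot fall by 20 points, whereas the 160 were at 32.3% or more there. The 160 also had more reads, with a median coverage of 72.5 over the 4 libraries against 53 over all CpGs.

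**Figure D2:**
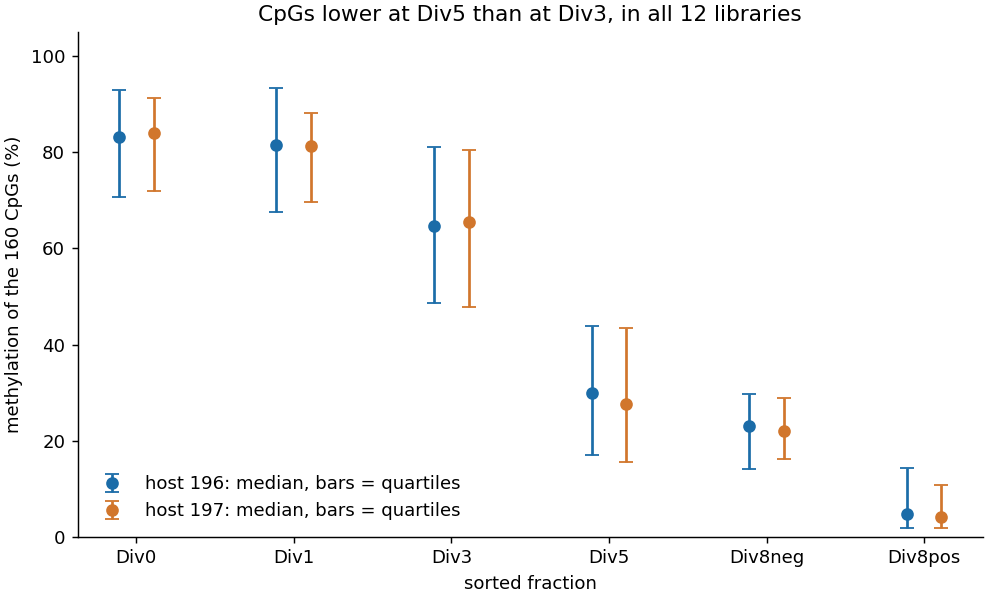
Methylation in percent of the 160 CpGs lower at Div5 than at Div3, by sorted fraction and host; points are medians over the CpGs and bars reach from the lower to the upper quartile. Levels were near each other in the 2 hosts in each fraction, and the median over both hosts was 65.4% at Div3, 28.5% at Div5 and 4.83% at Div8pos.

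Part of the CpGs did not go lower after Div5. The mean at Div8neg was above that at Div5 at 61 of the 160 and by at least 10 points at 20, and the mean at Div8pos was above that at Div5 at 16 and by at least 10 points at 6. Because these CpGs were chosen for a low value at Div5, these counts are given without a test.

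The reverse reading gave the same direction. The 5104 CpGs lower at Div8neg than at Div1, chosen without the Div5 and Div3 libraries, stood at 71.5% at Div5 and 79.0% at Div3. They differed by -7.11 points in host 196 and -7.78 points in host 197 (mean -7.44, SD 0.476, n = 2 hosts), against -0.419 points for the 755043 CpGs not called there in either direction. They made up 10.7% of the summed difference between Div5 and Div3. The 46686 CpGs lower at Div8pos than at Div1 differed by -2.57 points (SD 0.0964). The 201 CpGs higher at Div8neg than at Div1 (0.0264% of all) stood at 19.3% at Div5 and 17.8% at Div3, a difference of 1.43 points (SD 0.385).

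Each host was also used to choose CpGs for the other. By Fisher's exact test within host 197, 85 CpGs were lower at Div5 (0.0112% of all CpGs) and 2 were higher (0.000263%). In host 196 the 85 differed by -20.8 points on average, 68 were lower, 17 were higher and 64 were at least 10 points lower, whereas 45.8% of all CpGs were lower there with a mean of -0.454 points. Host 196, with its shallower Div5 library, chose 2 lower CpGs (0.000263%) and 1 higher (0.000132%). In host 197 the 2 lower ones differed by -12.1 points on average and the 1 higher by 4.17 points. Of the 85 chosen in host 197, 62 were also called over both hosts. Of the 17 that went the other way, 9 lay together in an intergenic stretch without a gene symbol, chr8:125951609-125955415 (mm9). It stood at 95.7% in host 196 and 49.2% in host 197 at Div5, and at 78.9% and 79.7% at Div3. Host 196 was at 96.7% there at Div1 and 92.4% at Div8neg, so its Div3 library lay below both, and host 197 was at 88.7% and 41.1% in these fractions.

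CpGs around the lower ones shared their loss over short distances. Among CpGs that were not called themselves and had at least 20% at Div1, the 119 within 50 bp of a lower CpG differed by -18.2 points (SD 0.594, n = 2 hosts). The 130 at 100 to 250 bp differed by -9.97 points, the 44 at 250 to 500 bp by -6.92 points and the 57 at 500 to 1000 bp by -2.15 points, against -0.726 points over all such CpGs. Reads of 1 fragment can cover neighbouring CpGs, so near CpGs share molecules.

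**Figure D3:**
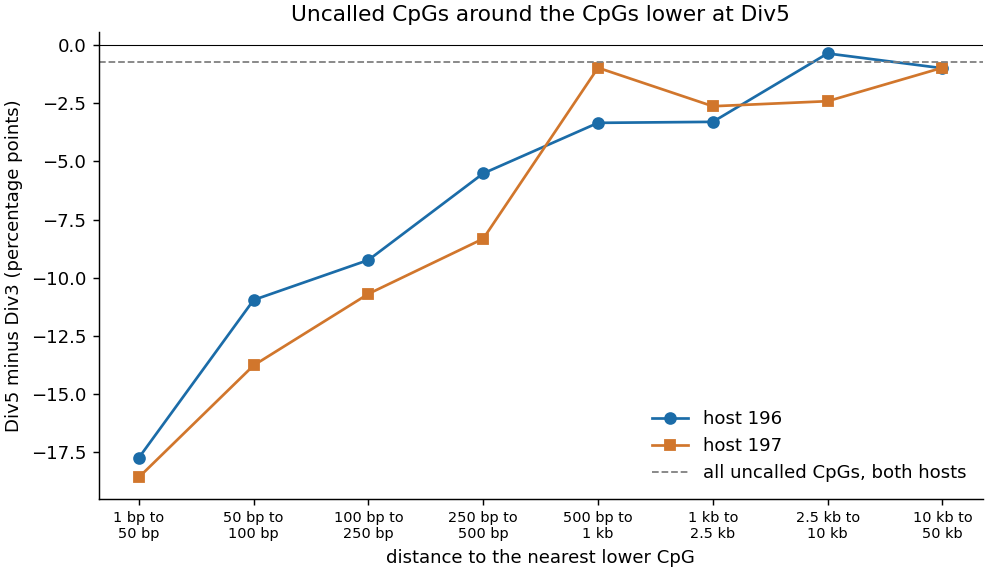
Mean difference of Div5 minus Div3 in percentage points at uncalled CpGs of at least 20% at Div1, by distance to the nearest lower CpG, for host 196 (circles) and host 197 (squares); the dashed line is the mean of all such CpGs, -0.726 points. Up to 500 bp both hosts lay at -5.51 points or lower, and beyond it at -3.34 points or higher.

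There were 12 regions with at least 3 lower CpGs and 0 with higher CpGs. They were chosen by the Div5 and Div3 values given for them, so their direction and the lack of overlap between the groups are descriptions. They span 27 to 297 bp and hold 43 called CpGs of 51 covered. The genes named for them in the table are Mapkapk2, Gm14005 (3 regions), Slc20a2, Got1, Nfkbia, Fam186b, Arhgef11 and Il10, and 2 regions have no symbol. Symbols name the nearest transcript, whereas distances refer to the nearest start site of any gene. Coordinates are those of the table, in mm9.

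The region with the most lower CpGs and the region of Il10 lie on either side of the same start site. The Mapkapk2 region, chr1:132943327-132943608, is intergenic and holds 6 lower CpGs of 7 covered; Mapkapk2 is a kinase activated by p38 that prolongs the life of cytokine transcripts. It stood at 16.7% in host 196 and 12.2% in host 197 at Div5, against 40.7% and 44.7% at Div3, a difference of -28.2 points (SD 6.03, n = 2 hosts, adjusted p 7.21e-05 to 0.0216 at its 6 lower CpGs). Il10 encodes an anti-inflammatory cytokine that activated B cells and plasmablasts can secrete. Its region, chr1:132907325-132907351, lies 9093 bp (median over its CpGs) before the start site and stood at 4.25% and 5.44% at Div5, against 31.7% and 28.5% at Div3, a difference of -25.2 points (SD 3.05, n = 2 hosts, adjusted p 0.000728 to 0.00483 at 3 CpGs).

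Both regions had Div5 libraries well below Div3 libraries, and the deposited distances of both point to start sites 2 bp apart, with 35976 bp between the regions. The levels in the other fractions were as follows. The Mapkapk2 region was at 65.3% at Div1, 9.84% at Div8neg and 2.32% at Div8pos. The Il10 region was at 50.2% at Div1 (SD 17.6, n = 2 hosts), 14.4% at Div8neg and 0.536% at Div8pos. Div8neg lay above Div5 at the Il10 region and at most of the 6 lower CpGs of the Mapkapk2 region. In the mean of the Mapkapk2 region Div8neg lay below Div5, and 1 of its 6 lower CpGs stood at 39.1% at Div5 and 5.56% at Div8neg. The 2 regions were not tested against each other.

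Gm14005, the mouse long noncoding RNA also called Morrbid, which lies beside the pro-apoptotic gene Bcl2l11, held 11 lower CpGs in 3 regions over 126924 bp of chromosome 2. The intronic region chr2:128156896-128157117 stood at 11.8% and 9.18% at Div5, against 52.7% and 44.1% at Div3, a difference of -37.9 points (SD 4.28, n = 2 hosts, adjusted p 1.69e-09 to 0.00754 at 5 CpGs). The intronic region chr2:128203034-128203084 stood at 26.9% and 30.5% at Div5, against 69.9% and 60.4% at Div3. The third, chr2:128283643-128283819, a median of 28605 bp before the start site, stood at 18.95% and 23.1% at Div5, against 66.7% and 59.1% at Div3, and its difference of -41.9 points (SD 8.27) was the largest of the 12 regions. In each of the 3 the Div3 mean was already below Div1, with 48.4%, 65.2% and 62.9% at Div3 and 74.1%, 87.8% and 91.7% at Div1. The first was at 18.1% at Div8neg, above its Div5 mean of 10.5%.

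Nfkbia encodes IκBα, the inhibitor that holds NF-κB in the cytoplasm and is itself induced by NF-κB after LPS. Its region chr12:56591511-56591618 is exonic, a median of 2045 bp downstream of the start site. It stood at 38.6% and 40.5% at Div5, against 69.4% and 70.3% at Div3, a difference of -30.3 points (SD 0.614, n = 2 hosts, adjusted p 4.11e-06 to 0.0167 at 3 CpGs). It was at 93.3% at Div0, 85.0% at Div1, 26.6% at Div8neg and 3.82% at Div8pos, so each fraction in this order was lower than the one before it.

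Slc20a2, a sodium-dependent phosphate transporter, held an intronic region of 4 lower CpGs at chr8:23617075-23617196, with 36.0% and 37.4% at Div5 against 74.2% and 64.6% at Div3 (difference -32.7 points, SD 7.75, n = 2 hosts). A second place with 2 lower CpGs, chr8:23650706-23650727, stood at 19.8% and 14.3% at Div5 against 52.0% and 65.4% at Div3. Got1, the cytosolic aspartate aminotransferase, held 4 lower CpGs in the intronic region chr19:43592935-43593128, with 49.6% and 40.2% at Div5 against 72.2% and 82.5% at Div3. The hosts differed most there among the 12 regions, at -22.7 points in host 196 and -42.4 points in host 197.

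At the first Slc20a2 region and at Got1 most of the loss before Div8 fell in this step, since Div3 was at 69.4% and 77.4% and Div1 at 73.9% and 82.4%. Arhgef11, a guanine nucleotide exchange factor for small GTPases, had the same order at chr3:87405100-87405133, with 64.8% and 62.0% at Div5 against 89.7% and 91.0% at Div3, and 95.8% at Div1.

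Fam186b had the highest level after Div5 of the 12 regions. Its intronic region chr15:99105637-99105818 stood at 63.5% and 69.5% at Div5, against 95.1% and 94.6% at Div3, a difference of -28.3 points (SD 4.58, n = 2 hosts). It was at 77.8% at Div8neg and 83.0% at Div8pos, both above Div5, and it is the 1 region of the 12 where Div8pos was not below Div5.

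Of the regions without a symbol, chr13:44416648-44416790 stood at 28.2% and 24.8% at Div5 against 63.9% and 63.8% at Div3, and chr5:149814151-149814447, with 3 lower CpGs of 10 covered, at 32.8% and 25.1% against 42.6% and 41.9%. Over the 12 regions, Div3 was at least 10 points below Div1 in 8, Div8neg was below Div5 in 9, and Div8pos was under 10% in 10.

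**Figure D4:**
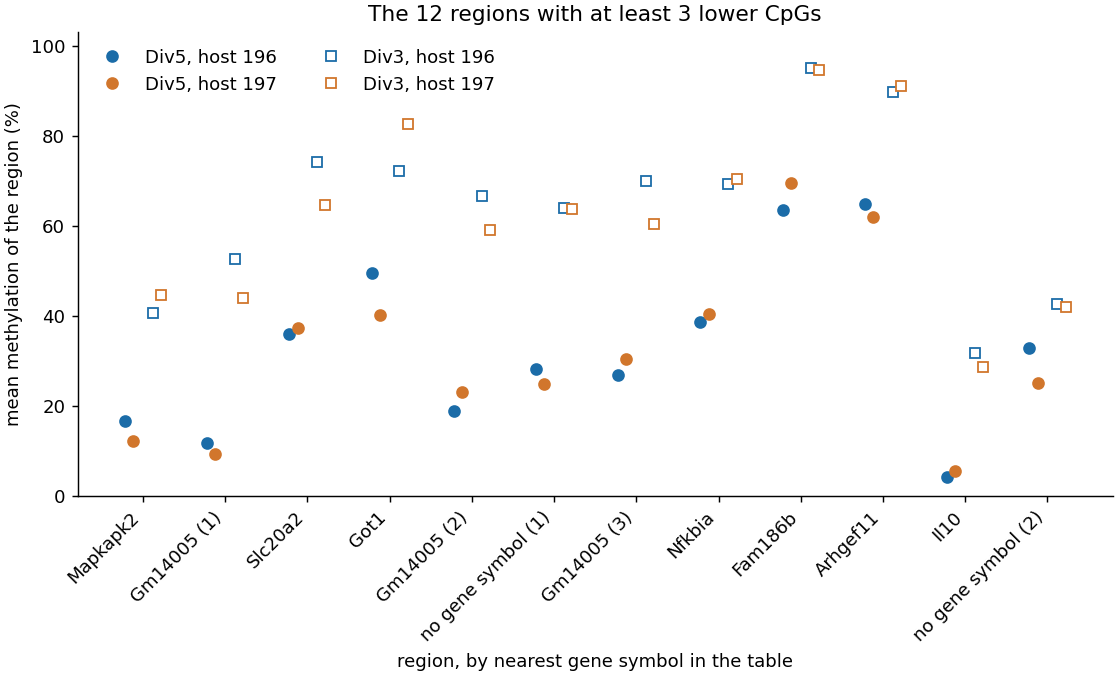
Mean methylation in percent of the covered CpGs of each of the 12 regions, in the Div5 libraries (filled circles, left) and the Div3 libraries (open squares, right) of host 196 (blue) and host 197 (orange); Gm14005 (2) is the intergenic region of that gene. In every region both Div5 values lie below both Div3 values, with differences of the means from -41.9 to -13.3 points.

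The 20 places with 2 lower CpGs differed by -49.2 to -22.0 points, and were chosen in the same way. Those of immune and cell cycle genes included Cd86, Tcf7, Cdk6, Gimap4 and Fcrlb. Cd86, the costimulatory ligand that activated B cells show to T cells, had an intronic pair at chr16:36641498-36641547 with 40.3% and 38.8% at Div5 against 77.6% and 72.6% at Div3 (difference -35.6 points, SD 2.49, n = 2 hosts). Fcrlb, an intracellular Fc receptor-like protein of B cells, had a pair 12251 bp before a start site with 19.6% and 17.2% at Div5 against 65.4% and 69.7% at Div3.

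Tle3, a Groucho-family corepressor, had the largest difference of the pairs, with 33.3% and 24.5% at Div5 against 77.4% and 78.8% at Div3. Tcf7, a transcription factor of T cells and their progenitors, had a pair 16703 bp before a start site at 20.7% and 16.5% at Div5 against 43.6% and 56.8% at Div3. Gimap4, a GTPase of lymphocytes, had a pair at 35.7% and 38.8% at Div5 against 62.2% and 62.3% at Div3. In each of these 3 places both hosts were lower, with host differences of -54.3 to -22.9 points.

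Cdk6, the kinase that works with D-type cyclins at the entry to the cell cycle, had its lower CpGs inside the gene. The intronic place at chr5:3382393-3382467, 38310 bp downstream of the start site, stood at 9.26% and 3.86% at Div5 against 27.4% and 29.8% at Div3 (difference -22.0 points, SD 5.52, n = 2 hosts). In the RefSeq promoter window of Cdk6, 14 measured CpGs, too low to fall by 20 points, averaged 2.91% and 0.703% at Div5 against 2.11% and 1.29% at Div3. Nck2, an adaptor protein with SH2 and SH3 domains, had 2 lower CpGs 3395 bp before a start site, in a place at 66.2% and 65.4% at Div5 against 92.5% and 93.5% at Div3. In its promoter window 7 measured CpGs averaged 0.714% and 1.38% at Div5 against 2.09% and 0.433% at Div3.

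The 2 windows are shown because they lie at the starts of genes whose lower CpGs are elsewhere. Both are from RefSeq (GRCm38.p6), plus strand, 5′ to 3′, 250 bases before to 50 after the start, Cdk6 at chr5:3343643-3343942 and Nck2 at chr1:43445501-43445800. Capitals mark the measured CpGs, placed by their deposited distance to the start site so that each falls on a CG.
Cdk6: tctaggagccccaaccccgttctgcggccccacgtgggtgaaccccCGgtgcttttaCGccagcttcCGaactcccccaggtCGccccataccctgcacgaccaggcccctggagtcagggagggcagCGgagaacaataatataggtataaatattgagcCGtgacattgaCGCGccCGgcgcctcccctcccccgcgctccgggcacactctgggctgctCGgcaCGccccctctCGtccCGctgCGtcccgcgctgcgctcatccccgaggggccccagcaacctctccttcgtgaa
Nck2: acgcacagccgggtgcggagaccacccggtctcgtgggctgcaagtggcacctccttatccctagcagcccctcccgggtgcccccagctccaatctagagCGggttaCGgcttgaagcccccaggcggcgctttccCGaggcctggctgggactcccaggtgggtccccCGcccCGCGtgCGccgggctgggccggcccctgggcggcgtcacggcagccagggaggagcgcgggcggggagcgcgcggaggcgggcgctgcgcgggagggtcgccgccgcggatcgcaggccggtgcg

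The Cdk6 window holds 27 CG and the Nck2 window 37, where the median of 27025 RefSeq promoter windows was 7. Of the 109 genes with a called CpG or named here, 79 had a RefSeq window, 9 had at least 6 measured CpGs that could be placed in it, and all 9 were under 10% in all 4 libraries, where no CpG could be called lower. Sequences of the lower regions are not shown, since no mm9 genome was used here.

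With at least 30 reads in each of the 4 libraries, 76 lower and 0 higher CpGs remained to name single sites from. The largest difference was at chr8:23650727 in Slc20a2, with 10 of 43 and 15 of 94 reads methylated at Div5 against 45 of 76 and 74 of 99 at Div3. That is 23.3% (95% Wilson interval 13.2 to 37.7) and 16.0% (9.92 to 24.7) at Div5 and 59.2% (48.0 to 69.6) and 74.7% (65.4 to 82.3) at Div3 (adjusted p 7.12e-12, quasi-binomial model with limma's dispersion). Reads are PCR copies without molecular identifiers, so such intervals cover counting error only.

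Next came a CpG of the chromosome 13 region without a symbol, at -45.2 points. Ildr1, an immunoglobulin-like receptor, had 14 of 38 and 31 of 94 reads methylated at Div5 against 56 of 70 and 60 of 76 at Div3 (adjusted p 3.01e-08). Abcc4, an efflux pump, had 16 of 40 reads methylated at Div5 in host 196 and the same share in host 197, against 83.3% and 75.8% at Div3 (adjusted p 1.57e-06). Pck1, an enzyme of gluconeogenesis, stood at 38.7% and 41.4% at Div5 against 84.0% and 74.2% at Div3 (adjusted p 0.00194). The Pck1 CpG lost its call without the host 196 library of Div3 (adjusted p 0.295), with edgeR (adjusted p 0.307) and after thinning (adjusted p 0.668), and the Abcc4 CpG after thinning (adjusted p 0.0689). All 5 lost their call without the host 197 library of Div5, where no CpG was called, and with the dispersion of each CpG alone. None of the 5 had overlapping groups, which their choice by the largest differences largely fixes.

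The 3 higher CpGs were single sites, and the 2 described here were thinly covered in the host 196 library of Div5, with 18 and 21 reads. The intergenic CpG of Hs3st1, a heparan sulfate sulfotransferase, stood at 72.2% and 60.6% at Div5 against 38.5% and 23.7% at Div3 (adjusted p 0.0109). The intronic CpG of Myo1e, a class I myosin, stood at 66.7% and 56.1% at Div5 against 30.8% and 18.6% at Div3 (adjusted p 0.0315). Both lost their call when either Div5 library or the host 197 library of Div3 was left out. Myo1e also lost it without the host 196 library of Div3. Both lost it with edgeR (adjusted p 0.986) and after thinning (adjusted p 0.684). Both kept it in the quasi-binomial model with a host block (adjusted p 0.0100 and 0.0324). Over both hosts Hs3st1 averaged 31.3% at Div0, 39.0% at Div1, 42.3% at Div8neg and 35.4% at Div8pos. Myo1e averaged 32.7%, 29.2%, 42.6% and 31.4% in these fractions. At neither was Div8neg or Div8pos above Div5.

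At the level of whole genes, taken as the mean percent over the CpGs within 50 kb of a start site, 0 of 16505 genes passed in either direction (0.0%; limma's moderated test with an adjusted p under 0.05 and a size of at least 10 points). The smallest adjusted p was 0.266. At an unadjusted p under 0.05, 680 genes (4.12%) were lower and 83 higher, and the median difference was -0.353 points. At least 1 lower CpG was held by 79 genes (0.479%). Only Gimap4 and Unc119 among the genes named below had a mean difference of 10 points or more.

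Of the 10 lower genes with the smallest p and the same sign in both hosts, none passed. Gimap4 averaged 24.7% and 29.0% at Div5 against 44.1% and 44.6% at Div3 over 8 CpGs (difference -17.5 points, SE 2.25, limma adjusted p 0.266). Unc119, a carrier of myristoylated signalling proteins, averaged 64.4% and 61.7% at Div5 against 73.6% and 78.7% at Div3 over 11 CpGs (difference -13.1 points, SE 1.98). Gm14005 averaged 63.8% and 64.5% at Div5 against 75.3% and 72.2% at Div3 over 21 CpGs (difference -9.58 points, SE 1.45). The groups did not overlap in any of these 3 genes, which their choice by a low p largely fixes. The share of all genes without overlap was not counted.

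The other 7 differed by -7.49 to -4.31 points. They were Cnp, an enzyme of myelin, Ppfia4, a liprin scaffold, the odorant receptor Olfr456, Unc93b1, which carries Toll-like receptors to endosomes, the ubiquitin ligase Herc3, the small GTPase Rap1a, and Mapkapk2. Unc93b1 stood at 24.3% and 24.8% at Div5 against 29.3% and 28.9% at Div3 (difference -4.56 points, SE 0.705, limma adjusted p 0.268). Rap1a stood at 27.8% and 29.5% at Div5 against 32.9% and 34.6% at Div3. Among these 7, Mapkapk2 alone held lower CpGs, 6 of them.

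The 6 higher genes with the smallest p were Hemk1, Pinlyp, C5ar1, 9930111J21Rik2, Panx2 and 1700061G19Rik, with differences of 3.19 to 8.19 points, limma adjusted p of 0.503 to 0.743 and 0 called CpGs. C5ar1, the receptor of the complement fragment C5a, stood at 91.8% and 87.3% at Div5 against 81.1% and 85.1% at Div3.

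**Figure D5:**
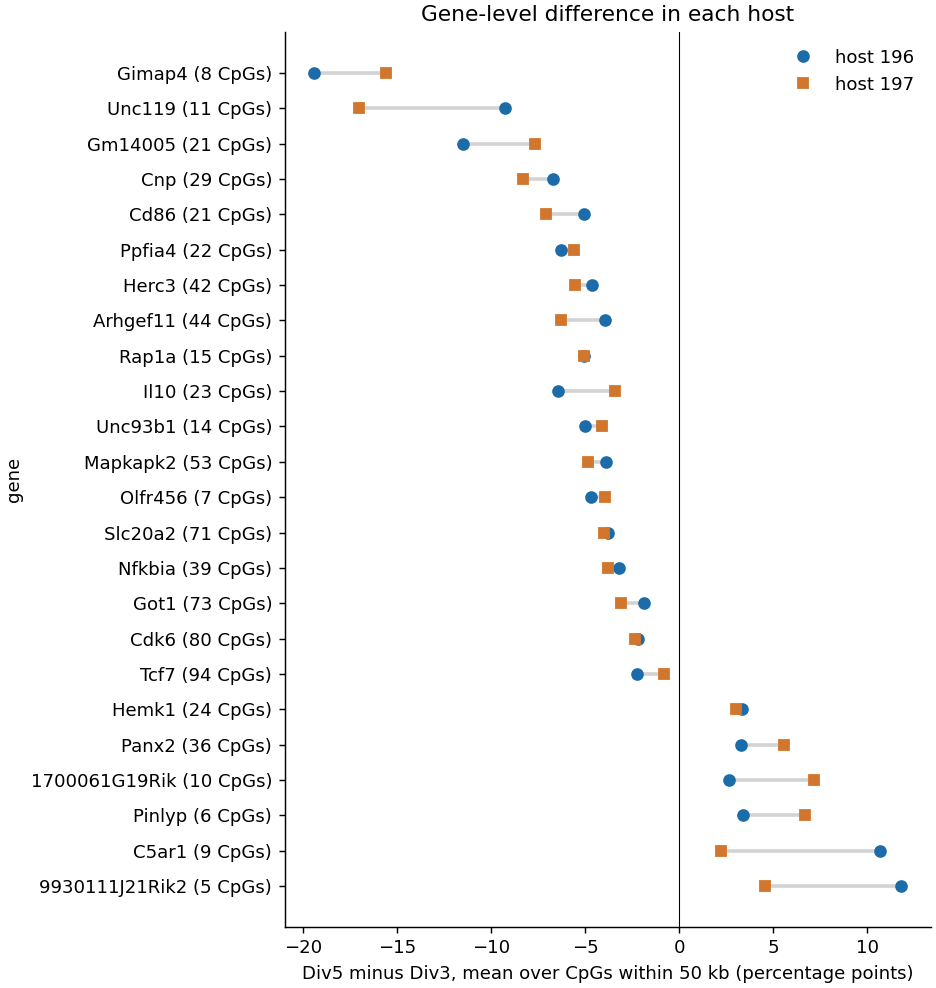
Difference of Div5 minus Div3 in percentage points, as the mean over the CpGs within 50 kb of a start site, in host 196 (circles) and host 197 (squares) for each named gene, with its number of CpGs. Means over the hosts run from -17.5 points for Gimap4 to 8.19 points for 9930111J21Rik2, and no gene passed the adjusted test.

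Genes of the listed programmes and cell types held few of the lower CpGs. In each of 6 lists 1 gene held any, and in the other lists no gene did. That 1 gene is 3.45% to 7.69% of the measured members, against 0.479% of all genes. With 13 to 29 measured members, 1 gene is enough to put a list above the share of all genes. List genes were also chosen knowing earlier results. The 6 genes included Il10 with 3 among 27 plasma cell genes, Cd86 with 2 among 27 genes of activation and class switching, and Nfkbia with 3 among 26 genes of Toll-like receptor and NF-κB signalling. S1pr1, the receptor that lets lymphocytes leave tissue, held 1 among 13 migration genes, Cdk6 held 2 among 29 cell cycle genes and Tcf7 held 2 among 15 T cell markers. None of these 6 genes passed at the gene level, where Il10 differed by -4.91, Cd86 by -6.08, Nfkbia by -3.49, Cdk6 by -2.27 and Tcf7 by -1.52 points.

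No gene of B cell identity (22 measured), B cell receptor signalling (23), the DNA methylation machinery (22) or the unfolded protein response and secretion (25) held a called CpG. Median differences were -0.895 points for B cell identity and -1.001 points for B cell receptor signalling, the lowest of the 15 lists, against -0.353 points over all genes. In each of these 2 lists 14 genes were lower in both hosts and 2 higher in both, and 6 were lower at an unadjusted p under 0.05, where 6754, 2362 and 680 of all 16505 genes were. Markers of NK, myeloid and erythroid cells, imprinted genes and germline genes held 0 called CpGs, with medians of 0.218, -0.484, -0.215, -0.581 and -0.842 points.

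By the mean over CpGs and the count of lower CpGs, the step of Div5 over Div3 lay between the earlier and later steps. The other steps share libraries with it. The mean difference was -0.203 points for Div1 minus Div0 with 0 lower CpGs, -0.122 points for Div3 minus Div1 with 67 lower (0.00881%), and -0.466 points for Div5 minus Div3 with 160 lower. It was -2.07 points for Div8neg minus Div5 with 901 lower (0.118%) and -5.32 points for Div8pos minus Div5 with 34215 lower (4.5%). By pooled reads the order differed, with -2.75 points for Div1 minus Div0, -0.176 for Div3 minus Div1 and 0.575 for Div5 minus Div3. The pooled difference was -3.45 points for Div8neg minus Div5 and -6.14 for Div8pos minus Div5. The steps span unequal numbers of divisions and unequal read depths, and were not tested against each other.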

How the data were processed

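Per the submitters' processing notes, the tools were Bismark and Bowtie2 and the build mm9, with versions not given in the sources used here. Deposited by the authors, the 12-library table gives methylated and unmethylated read counts per CpG and library, at no fewer than 10 reads in each of the 12 libraries. The deposited tables also give each level as a fraction, methylated reads over all reads; percentages were recomputed from the counts. Annotation is that of the table.

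A quasi-binomial model of the counts, with the fraction as term, was fitted per CpG over all 12 libraries. The dispersion was moderated with limma 3.58.1 (R 4.3.3), which gave 1.16 times binomial variation for all CpGs, so p-values rest largely on read number. Gene levels were the means over at least 5 CpGs within 50 kb, tested with limma. Regions were runs of at least 3 called CpGs at most 500 bp apart. Alternatives included edgeR 4.0.16, thinning, single dispersions, a host block and leaving out libraries. Libraries of 1 host come from 1 animal per the labels, so host numbers pair them; host deviations at Div5 and Div3 correlated at 0.000677 over 222401 CpGs. Coverage differed between all libraries beyond counting noise, with a chi-square of at least 1.20 per degree of freedom. At the 1192 CpGs with a median of 150 reads or more the median dispersion was 1.40, against 1.03 over all CpGs. The mean dispersion was 2.36 there, against 1.16 over all CpGs. None of the 160 lower CpGs was among the 1192.

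Genes were named as the 10 lower and 6 higher of lowest p with 1 sign in both hosts, the regions and genes with the most called CpGs, list genes with at least 2 called CpGs, and the 5 largest single CpGs of at least 30 reads; the smaller places, S1pr1 and the larger-table sites were chosen after their values were seen. Members and lists were chosen with earlier results of these data known. Of the higher CpGs, 1 and the gene it lies in, and 1 marker gene, are not reported here.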

Additional observations from a re-analysis of the deposited data

Results flagged for a closer look

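A larger deposited table, not used in the comparisons above, held 1131213 CpGs with at least 10 reads in each of the 4 libraries, of which 370865 lie outside the 12-library table. Among these, 12 were lower at Div5 than at Div3 (0.00324%, same model and limits, limma's dispersion) and 0 were higher. The share called lower within the 12-library table was 0.021%. All 12 were lower in both hosts, against 22.8% of all CpGs of the 12-library table. Their choice by a difference between these libraries largely fixes this. Over all 1131213 CpGs the same run called 159 lower, and 147 of the 160 kept their call. The 12 were singled out as a signal in data outside the main table. The named genes were Gm14005, 2310011J03Rik, Ahr, Setbp1, Rasl11a, Sde2, Sos1, Lmna, Kcnk10, Flt3 and Wdr64, and 1 had no symbol. The CpG of Gm14005 at chr2:128156856 lies 40 bp before the first region of that gene and stood at 50.0% of 10 reads and 23.8% of 21 reads at Div5, against 100% of 12 and 89.3% of 28 reads at Div3 (adjusted p 0.00375). The CpG of Ahr, the ligand-activated aryl hydrocarbon receptor, stood at 17.4% and 25.5% at Div5 against 67.8% and 57.9% at Div3 (adjusted p 0.00526).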

How the results depend on the processing

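The mean difference was reversed with summed reads, at 0.575 points, and with summed reads without CpGs of 150 reads or more, at 0.395; with 1 shared set of coverage weights (added after seeing the data) it was -0.452, so the sign followed unequal read weights between libraries. It was -0.415 with at least 30 reads, -0.533 in the larger table and -0.478 to -0.454 in single hosts. The lower and higher CpGs numbered 160 and 3 in the main analysis and 0 and 0 with the dispersion of each CpG alone (11699 at an unadjusted p under 0.05). They numbered 14 and 0 after thinning, 25 and 0 with edgeR (27244 at an unadjusted p under 0.05), and 96 and 0 with at least 30 reads. Higher CpGs numbered 5 at 10 points, 1 with at least 20 reads and 1 with a coverage trend in the dispersion (added after seeing the data). Leaving out 1 library gave 0 to 150 lower and 0 to 2 higher CpGs. The replicate block, in which libraries of 1 host are paired, gave 129 lower, 128 of them among the 160, and 2 higher CpGs, and 0 genes. Within 5 kb of a start site 1 gene was lower, Fcgr2b, and Slc20a2, Il10 and Tcf7 were reversed at 0.818, 4.78 and 0.158 points; Cdk6 was reversed by summed reads at 0.474. Regions of at least 2 CpGs numbered 32. CpGs 30 points lower in host 197 differed by -23.5 points in host 196. Except for the weights, the causes were not tested.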
